A study of Harpegnathos saltator with 27 samples.

Results

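Antennae of orco mutant pupae of the jumping ant Harpegnathos saltator were compared with antennae of wild-type (WT) pupae at a single stage, 15 days after puparium formation (D15 APF). The libraries were chosen by their labels for genotype and age, which gave 7 of the 27 bulk RNA-seq libraries of the series, 3 from orco mutants and 4 from WT. The other libraries come from orco mutant and WT antennae of earlier and later pupae (D10, D20, and D25) and set the D15 values in time. The labels give the genotype as orco mutant without naming the allele or saying whether both copies carry it. How many pupae went into a library is not given in the sources used here, so the p-values below measure the spread between libraries, which may be partly technical. No treatment was applied to either genotype.

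Orco is the co-receptor with which each insect odorant receptor (Or) assembles into an odor-gated ion channel in the dendrite of an olfactory receptor neuron (ORN). In insects these neurons use acetylcholine as their transmitter. ORNs are born early in the pupa, then switch on orco and the tuning Or genes while they extend axons to the antennal lobe and build the sensory cilium that carries the receptors. D15 falls in this period of differentiation, and the comparison asks how far the antennal transcriptome of mutants already differed from WT before the later stages.

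Reads on genes numbered 6717868 to 44501674 per mutant library and 13772158 to 38608319 per WT library. Mutant replicate 1 was sequenced in batch 2, mutant replicates 2 and 3 and WT replicate 4 in batch 3, and WT replicates 1 to 3 in batch 1. Batch 3 was therefore the only D15 batch with both genotypes, and outside it batch and genotype cannot be told apart at this stage. Batches were uneven between genotypes at the other stages too. At D10 all WT libraries and mutant replicate 1 were of batch 1, and mutant replicates 2 and 3 of batch 2. At D20 mutant replicate 1 and WT replicates 1 to 3 were of batch 1, and the rest of batch 3. At D25 WT replicates 1 to 3 were of batch 1, and the rest of batch 3. On the first principal component of the 7 libraries, which held 44.0% of the variance, WT replicate 3 lay at 98.6 and mutant replicate 1 at 48.8, against 11.8 for WT replicate 1 and −32.2 to −47.2 for the others. Of 9523 genes with a normalized count of at least 100 in some D15 library, 373 were more than 3-fold above every other D15 library in WT replicate 3 and 68 in mutant replicate 1, against 1 to 8 in each of the others. On the low side WT replicate 2 led, with 101 genes more than 3-fold below every other D15 library. WT replicate 3 had 64 such genes, WT replicate 1 had 31, mutant replicate 1 had 20, and the others 5 to 19. Mutant replicate 1 also had the fewest reads and the most unmapped reads, 16.8% against 3.41 to 7.46% elsewhere. The labelled tissue was checked on markers of antennal cell types, and none of the 17 matched markers was at 0 in the D15 libraries.

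**Figure D1:**
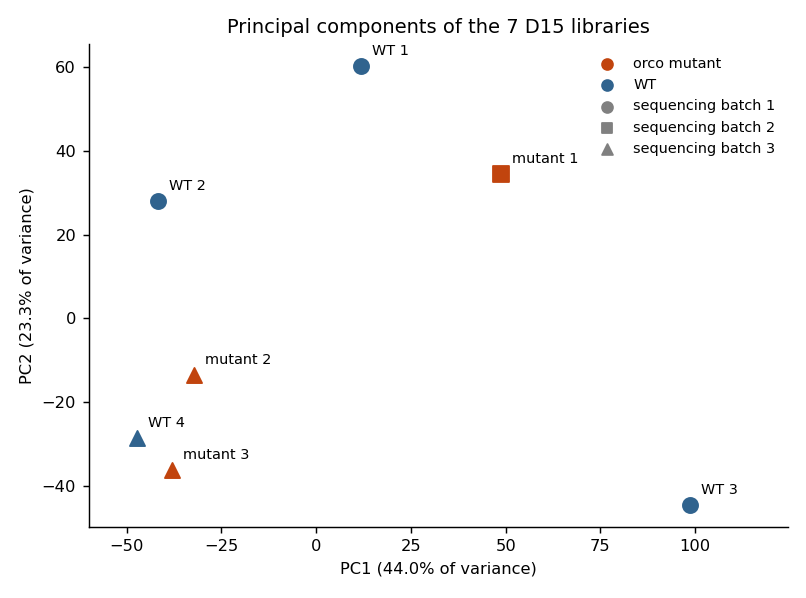
Principal components 1 and 2 of the 7 D15 libraries, in arbitrary units, with mutant libraries in red, WT libraries in blue, and marker shape giving the sequencing batch. WT replicate 3 (98.6 on PC1) and mutant replicate 1 (48.8) sit away from the rest, and the 3 libraries of batch 3 lie close together whatever their genotype.

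At D15 mutant and WT antennae differed past the threshold in 1 gene, and it belongs to acetylcholine synthesis. ChAT, which encodes the choline acetyltransferase that makes acetylcholine, was the single gene of 11086 tested (0.00902%) to pass edgeR's quasi-likelihood test with Benjamini-Hochberg adjustment at a threshold of 0.05. Its normalized counts (reads divided by a size factor for each library) were 573, 459, and 518 in the mutant libraries, against 2625, 1645, 3125, and 1129 in the WT libraries. The genotypes did not overlap, and the mutant libraries sat within a narrow band while WT spread almost 3-fold. ChAT fell by 2.07 on the log2 scale (SE 0.31, adjusted p = 0.0114, edgeR), a 4.21-fold lower level in mutants. Its direction held in all 17 alternatives, with log2 fold changes of −2.28 to −1.24, and it passed the threshold in 10 of them. Adjusted p was 0.0599 with sequencing batch as a term, 0.678 with only the 7 D15 libraries in the fit, 0.0974 without mutant replicate 1 and WT replicate 3, and 0.0517 to 0.238 in the 4 fits without WT replicate 1 or without 1 of the mutant libraries. Within batch 3, the mutant counts of 459 and 518 stood against 1129 in the lone WT library. In bulk antennae, fewer cells of a type and less of an RNA per cell cannot be told apart.

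The other genes of acetylcholine release had the same rank pattern without passing the test. VAChT encodes the transporter that loads acetylcholine into synaptic vesicles. Its normalized counts were 152, 167, and 175 in mutants, against 373, 366, 759, and 310 in WT (log2 fold change −1.47, SE 0.28, adjusted p = 0.0654, edgeR). ChT encodes the transporter that takes choline back into the terminal. Its counts were 134, 131, and 209 in mutants, against 578, 378, 1583, and 368 in WT (log2 fold change −2.22, SE 0.50, adjusted p = 0.172, edgeR). For neither gene did the genotypes overlap, and WT replicate 3 held the highest count of both. Without that library the log2 fold changes were −1.11 for VAChT and −1.51 for ChT. With DESeq2's test in place of edgeR's, ChAT, VAChT, and ChT all passed, with adjusted p-values of 2.37e-07, 0.000635, and 0.00318.

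Receptors for acetylcholine did not share the pattern. Of the 11 cholinergic genes tested, 3 had mutant libraries wholly below WT, and these were ChAT, VAChT, and ChT. Over all tested genes, 462 had mutant libraries wholly below WT (4.17%) and 480 wholly above (4.33%). The 8 nicotinic and muscarinic receptor genes overlapped between genotypes, with log2 fold changes from −0.30 for nAChRbeta1 to 1.88 for mAChR-B. The median over the 11 genes was 0.31, against −0.03 over all tested genes.

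ChAT values of the other stages place the D15 difference in time, with batches uneven between genotypes at each stage. At D10 ChAT averaged 443 ± 188 normalized counts in mutants and 349 ± 57.8 in WT (SD, n = 3 each). At D15 it averaged 517 ± 56.9 in mutants and 2131 ± 908 in WT, and at D20 692 ± 40.5 in mutants and 2568 ± 825 in WT (SD, n = 3 mutant and 4 WT libraries). At D25 the means were 1297 ± 85.8 in mutants and 4043 ± 894 in WT. The difference between the D15 and D20 effects was −0.16 on the log2 scale (SE 0.41, adjusted p = 0.976, edgeR). VAChT took another course, with 730 ± 98.2 in mutants and 742 ± 159 in WT at D25.

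**Figure D2:**
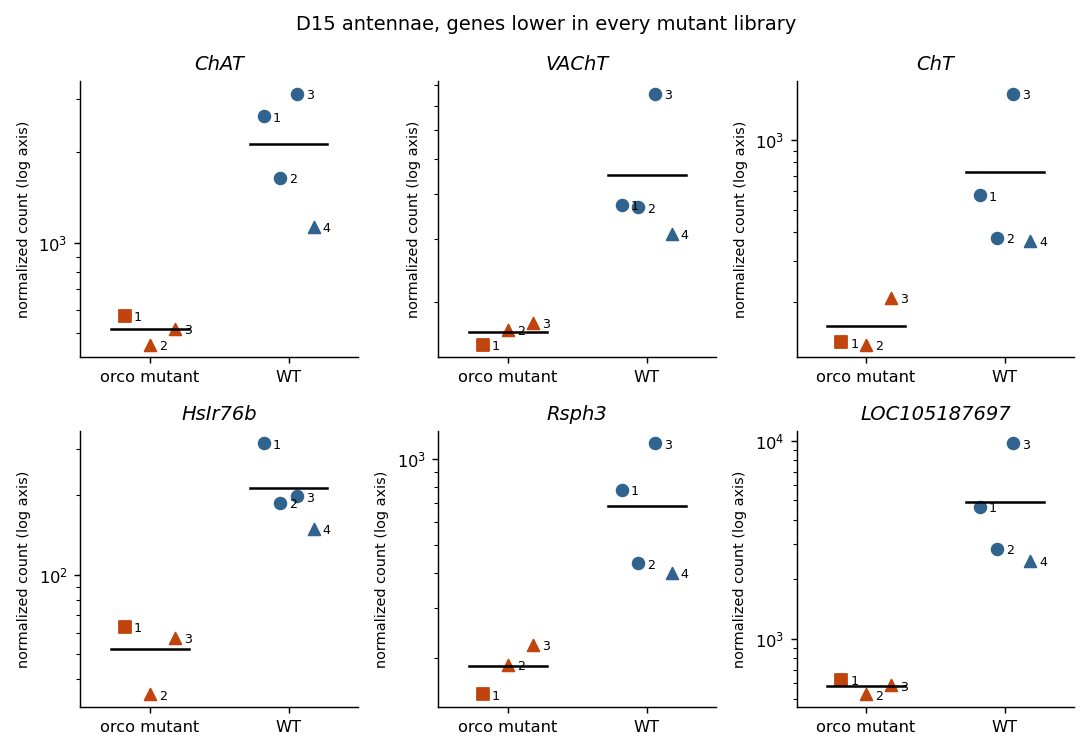
Normalized counts of ChAT, VAChT, ChT, HsIr76b, Rsph3, and LOC105187697 in each D15 library on a log axis, with mutants at the left and WT at the right, bars at the group means, digits for replicate numbers, and marker shapes for batches as in the plot of principal components. In every panel all 3 mutant libraries lie below all 4 WT libraries, and ChAT alone passed the test (adjusted p = 0.0114, edgeR).

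Beyond the cholinergic genes, the genes nearest the threshold on the lower side included a chemosensory co-receptor. HsIr76b, the homolog of a co-receptor that fly ionotropic receptors use in taste and amine detection, had 63.4, 35.1, and 57.6 normalized counts in mutants, against 315, 187, 198, and 149 in WT. Its log2 fold change was −2.08 (SE 0.38, adjusted p = 0.0637, edgeR), a 4.23-fold lower level, and its range over 17 alternatives was −2.25 to −1.57. The mutant level stood below WT at the other stages too, where batches were also uneven between genotypes. Means were 47.7 in mutants and 183 in WT at D10, 103 in mutants and 402 in WT at D20, and 146 in mutants and 485 in WT at D25. Its WT counts at D15 did not rest on WT replicate 3, and within batch 3 the log2 fold change was −1.72.

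Rsph3, named for a radial spoke protein of motile cilia, had 150, 190, and 223 normalized counts in mutants, against 779, 432, 1136, and 398 in WT. Its log2 fold change was −1.88 (SE 0.34, adjusted p = 0.0637, edgeR), and −0.98 within batch 3. At D10 Rsph3 averaged 278 ± 57.5 in mutants and 301 ± 60.8 in WT, so the genotypes overlapped there and not at D15. LOC105187697, with no symbol in the table used, had 623, 526, and 583 in mutants, against 4648, 2845, 9716, and 2481 in WT (log2 fold change −3.12, SE 0.58, adjusted p = 0.0637, edgeR). At D10 it averaged 457 ± 73.8 in mutants and 365 ± 68.8 in WT, and by D25 2029 ± 235 in mutants and 2022 ± 1857 in WT. At D25 the WT libraries of LOC105187697 spread from 611 to 4711 and took in the mutant values.

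A long noncoding RNA, LOC112589618, was nearly silent in mutants at D15. It had 2.53, 7.94, and 6.53 normalized counts in mutants, against 749, 346, 17.9, and 304 in WT (log2 fold change −5.79, SE 1.12, adjusted p = 0.0662, edgeR). It was as low in both genotypes at D10, with means of 4.51 in mutants and 5.67 in WT, and had means of 163 in mutants and 265 in WT at D20. Its difference between D15 and D20 passed the test (−5.05, SE 1.31, adjusted p = 0.0377, edgeR), and did not without WT replicate 1 or 2 or any 1 of the mutant libraries (adjusted p up to 0.119). A further long noncoding RNA, LOC112590425, had 0, 0, and 1.63 in mutants, against 590, 1395, 2.56, and 3.37 in WT, so that only WT replicates 1 and 2 held appreciable counts. Its fitted difference between D15 and D20, −11.89 (adjusted p = 0.0218, edgeR), passed the test and was no longer past it with batch as a term (adjusted p = 0.163). With mutants at or near 0, the fitted size depends on the prior count.

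The remaining genes of this group had smaller or less even differences. The kinase gene meng had 155, 118, and 57.1 normalized counts in mutants, against 724, 427, 3693, and 398 in WT (log2 fold change −3.62, SE 0.76, adjusted p = 0.106, edgeR). WT replicate 3 set much of its size, and the log2 fold change was −2.57 without that library and mutant replicate 1. Sec13, a subunit of the COPII vesicle coat that leaves the endoplasmic reticulum (ER), had 596, 484, and 531 in mutants, against 1010, 923, 886, and 671 in WT (log2 fold change −0.73, SE 0.16, adjusted p = 0.147, edgeR). At D20 Sec13 lay the other way, with means of 1471 ± 51.2 in mutants and 1179 ± 138 in WT, and the difference between the stages passed the test (−1.02, SE 0.22, adjusted p = 0.0124, edgeR). G11949 and LOC105186777, with log2 fold changes of −1.91 and −2.23, completed the 12 genes of smallest p among those wholly below WT with a WT mean of at least 100.

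On the higher side no gene passed the test. The long noncoding RNA LOC112589222 had 152, 75.4, and 100 normalized counts in mutants, against 18.05, 42.8, 20.5, and 20.6 in WT (log2 fold change 2.05, SE 0.40, adjusted p = 0.0662, edgeR). It held within batch 3, at 2.06. LOC105190959, LOC105187398, and LOC105180669 had log2 fold changes of 0.98, 1.18, and 1.25, and within batch 3 of 0.97, 1.35, and 0.93. LOC105182842 and G6542 had log2 fold changes of 0.63 and 0.90, and CLIP-190, a microtubule plus-end protein, 0.66. LOC109503938 had a log2 fold change of 1.68, and mutant replicate 1 held its highest count, 215 against 74.8 and 63.3 in the other mutant libraries. Without mutant replicate 1 the log2 fold change of LOC109503938 was 0.96. LOC112588826, a long noncoding RNA, had 471, 13.6, and 15.9 in mutants, against 12.9, 0, 12.8, and 8.24 in WT, so its log2 fold change of 4.20 rested on mutant replicate 1 and was 0.80 within batch 3. Its difference between D15 and D20 passed the test (5.799, adjusted p = 0.0361, edgeR), and did not without mutant replicate 1 (2.39, adjusted p = 0.44) or without WT replicate 4.

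Counted by single genes at an unadjusted p under 0.05, 403 genes were higher (3.64%) and 661 lower (5.96%) in mutants by edgeR. DESeq2 called 94 of the 11025 genes to which it gave an adjusted p (0.853%), with 18 higher and 76 lower in mutants. Of the 76 lower genes, 51 had WT replicate 3 more than 3-fold above every other D15 library. Genotypes did not overlap in 39 of the 94.

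The orco gene itself was transcribed in mutants at D15 at a level no lower than in WT. HsOrco had 22285, 12926, and 22416 normalized counts in mutants, against 8465, 10869, 3502, and 11921 in WT. All 3 mutant libraries lay above all 4 WT libraries, with a log2 fold change of 1.10 (SE 0.44, adjusted p = 0.467, edgeR), and the gap was smallest within batch 3, between 12926 in mutant replicate 2 and 11921 in WT replicate 4. The direction held in 17 of 17 alternatives, at 0.52 to 1.31, and the threshold was passed in 0. Counts over the whole gene do not show whether the mutation is present in the transcripts, so they are no check of the genotype labels.

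Tuning Or genes were expressed at D15 in both genotypes. Of 359 Or genes that passed the count minimum, 358 had a mean of at least 10 normalized counts in mutants and 358 in WT, and none passed the test between genotypes. Log2 fold changes had a median of 0.25, with 243 genes above 0 and 116 below, and the middle 80% of genes lay between −0.43 and 0.89. Summed over the 359 genes, mutants had 42938, 14070, and 21586 normalized counts, against 28226, 16964, 23335, and 14090 in WT. Mutant replicate 1 held the highest sum and mutant replicate 2 the lowest, so the mutant libraries spanned the whole range of WT.

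Scaling each Or gene to its maximum over the 27 libraries gave the same picture. The mean scaled expression was 0.768, 0.274, and 0.432 in the mutant libraries, against 0.566, 0.340, 0.449, and 0.295 in the WT libraries. The group means were 0.491 ± 0.252 (SD, n = 3) in mutants and 0.413 ± 0.121 (SD, n = 4) in WT, a difference of 0.0788 that is smaller than the spread within mutants. Without mutant replicate 1 the difference was −0.0595, and within batch 3 it was 0.0578. The sign of the Or difference at D15 therefore depends on which libraries are used and on whether batch is a term. The median log2 fold change was 0.28 within batch 3, −0.14 without the 2 libraries that stand apart, and −0.48 with batch as a term.

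Single Or genes at the edges of this distribution were few. Mutant libraries lay wholly above WT in 7 of the 360 genes of the list, which includes orco, and wholly below in 2, beside 4.33 and 4.17% over all tested genes. At an unadjusted p under 0.05, 12 were higher and 3 lower, beside 3.64 and 5.96% over all tested genes. None of these counts exceeded the share over all genes. HsOr59 had 170, 128, and 189 normalized counts in mutants, against 66.2, 73.1, 71.7, and 91.8 in WT (log2 fold change 1.06, SE 0.33, adjusted p = 0.41, edgeR). It kept this ratio at D20, with means of 124 ± 43.6 in mutants and 62.2 ± 13.97 in WT. HsOr311 had 165, 17.5, and 11.8 in mutants, against 9.45, 11.6, 11.5, and 7.49 in WT, so its log2 fold change of 2.58 came mostly from mutant replicate 1 and was 0.56 without it. HsOr136 had 220, 73.8, and 541 in mutants, against 135, 90.9, 58.9, and 89.1 in WT (log2 fold change 1.53), with the groups overlapping.

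The contrast with D20 shows what set D15 apart from the next stage. The difference between the mutant effect at D15 and at D20, both on the log2 scale, was tested in the same edgeR model. This difference and the D15 comparison share the D15 libraries. It passed the test in 286 of 11086 genes, with the effect higher at D15 in 269 (2.43%) and lower in 17 (0.153%). The count was 180 without mutant replicate 1 and WT replicate 3, and 16 within batch 3. Of the 286, 181 were Or genes, orco among them, which is 63.3% of the calls. Without orco, 180 of the 359 tuning Or genes tested passed (50.1%). The median Or log2 fold change was −3.58 at D20, where 345 of the 359 genes lay below 0. By count of genes with a mean of at least 10 normalized counts, mutants had 270, 358, 83, and 50 at the stages D10 to D25, and WT had 125, 358, 352, and 349. At D10 the summed Or counts overlapped, with 7942 to 19333 in mutants and 6351 to 8777 in WT. Mutant replicates 2 and 3 of D10 had 5205684 and 3454610 reads on genes, with 33.2 and 24.8% of reads unmapped.

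**Figure D3:**
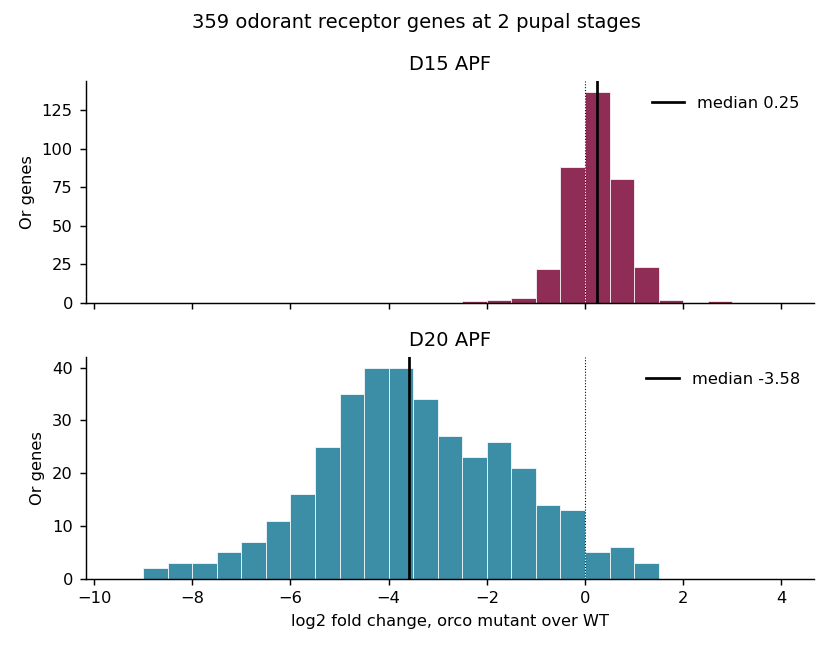
Distribution of log2 fold changes of mutants over WT for 359 Or genes without orco at D15 (top) and D20 (bottom), as numbers of genes per bin of 0.5, with solid lines at the medians. The D15 values centre on 0.25 and the D20 values on −3.58, where 345 genes lie below 0.

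Individual receptors show its size. HsOr293 averaged 171 ± 52.5 normalized counts in mutants and 100 ± 57.1 in WT at D15, and 2.77 ± 1.86 in mutants and 106 ± 32.9 in WT at D20, a difference between stages of 5.88 (SE 0.74, adjusted p = 0.000292, edgeR). HsOr157 averaged 107 ± 46.4 in mutants and 92.97 ± 26.4 in WT at D15, and 0.924 ± 0.822 in mutants and 65.3 ± 18.004 in WT at D20, a difference of 6.06 (SE 0.73, adjusted p = 0.000292, edgeR). HsOr336, with a difference of 5.89 (adjusted p = 0.000424, edgeR), was the third. HsOrco averaged 19209 ± 5441 in mutants and 8689 ± 3749 in WT at D15, and 1022 ± 401 in mutants and 2593 ± 658 in WT at D20. Its difference was 2.48 (SE 0.64, adjusted p = 0.0373, edgeR), which passed the threshold in 7 of 16 alternatives. The libraries that end this call when left out singly were WT replicates 1 and 3 and mutant replicates 1 and 3, with adjusted p-values of 0.0537 to 0.0962. Of 5 receptors picked from the study's text, HsOr247 and HsOr206 passed with differences of 1.84 and 3.35, and HsOr370, HsOr61, and HsOr202 did not (adjusted p = 0.097, 0.063, and 0.167, edgeR). HsOr136, described above for its D15 counts, had a difference of 3.70 (adjusted p = 0.00557, edgeR). Without mutant replicate 1, HsOr247 and HsOr206 missed the threshold (adjusted p = 0.0663 and 0.0989, edgeR), as did HsOr206 without WT replicate 3.

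A gene of the synapse passed in the same contrast. nSyb, the neuronal synaptobrevin of synaptic vesicles, had 4014, 2305, and 3725 normalized counts in mutants, against 4367, 3132, 4398, and 3459 in WT at D15 (log2 fold change −0.23, SE 0.22, adjusted p = 0.662, edgeR). At D20 it averaged 1415 ± 256 in mutants and 5331 ± 1118 in WT, and the difference between stages was 1.71 (SE 0.31, adjusted p = 0.00291, edgeR). Of 17 neuronal genes listed, nSyb alone passed as higher at D15 in this contrast, beside 2.43% over all tested genes. None passed at D15 itself by edgeR or DESeq2, with 1 higher and 0 lower at an unadjusted p under 0.05 (3.64 and 5.96% over all tested genes). Their median log2 fold change at D15 was 0.36, and 0.01 within batch 3.

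Among neuron markers at D15, fne, an RNA-binding protein of insect neurons, had 8100, 4423, and 6264 normalized counts in mutants, against 10215, 8193, 12978, and 7151 in WT (log2 fold change −0.66). Syt1, the calcium sensor of vesicle release, had a log2 fold change of −0.49. The transcription factor onecut lay the other way at 1.49, with 2109, 433, and 1373 in mutants, against 455, 319, 452, and 570 in WT. Genotypes overlapped in all 3 genes. Summed over the 4 neuron markers, mutants ranged from 7976 to 15720 and WT from 12550 to 20390, with overlap. Whether the share of neurons has a part in the ChAT value was not tested.

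The list for the sensory cilium held 27 genes, among them the channel genes nompC and iav and nompA, which is also on the support cell list. Of the 27, 0 passed between genotypes at D15 by edgeR or DESeq2. In the difference between D15 and D20, 5 passed, each with the higher effect at D15 (2.43% over all tested genes). At D15, 2 were higher and 0 lower at an unadjusted p under 0.05 (3.64 and 5.96% over all tested genes), and the median log2 fold change was 0.17. Oseg1 was the only one without overlap, wholly above WT (4.33% over all tested genes). IFT54, of the intraflagellar transport machinery, averaged 542 ± 121 normalized counts in mutants and 505 ± 69.98 in WT at D15, against 173 ± 15.5 in mutants and 583 ± 82.4 in WT at D20 (difference 1.86, SE 0.29, adjusted p = 0.00093, edgeR). BBS4 and BBS8, subunits of the BBSome that ferries membrane cargo in cilia, had differences of 1.79 and 1.71, and the transport genes Oseg5 and nompB of 1.46 and 0.64. Oseg5 and nompB missed the threshold without mutant replicate 1 or 3 (adjusted p up to 0.069 and 0.0735, edgeR), and nompB also without WT replicate 2. These 5 were named after their values were seen.

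The gene with the smallest p in this contrast was LOC105190591, which the study uses as a marker of support cells, the non-neuronal cells around the ORNs. It had 616, 432, and 766 normalized counts in mutants, against 584, 555, 496, and 504 in WT at D15. At D20 it averaged 81.2 ± 6.50 in mutants and 481 ± 88.0 in WT, and the difference was 2.73 (SE 0.31, adjusted p = 0.000109, edgeR). The other support cell markers did not follow it. The differences of sv, LOC105182650, and LOC105188530 were −0.02, −1.60, and −0.84 (adjusted p = 0.999, 0.867, and 0.922, edgeR). At D20 sv averaged 1880 ± 1078 in mutants and 994 ± 331 in WT. Fdx2, a mitochondrial ferredoxin of iron-sulfur cluster assembly, passed with the lower effect at D15. It had 243, 271, and 237 in mutants, against 301, 288, 488, and 258 in WT at D15, and averaged 2806 ± 746 in mutants and 657 ± 152 in WT at D20 (difference −2.50, SE 0.33, adjusted p = 0.000432, edgeR). HsIr317, an ionotropic receptor gene of low counts, had 2.53, 2.32, and 2.86 in mutants, against 14.6, 11.6, 15.4, and 2.62 in WT at D15, and averaged 45.5 ± 30.6 in mutants and 15.9 ± 5.97 in WT at D20 (difference −3.52, adjusted p = 0.0473, edgeR). Leaving out any 1 library but WT replicate 4 ended the HsIr317 call, with adjusted p up to 0.125 by edgeR.

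Of the 19 ionotropic receptor genes tested at D15, HsIr76b was the only one without overlap, beside 4.17% wholly below WT over all tested genes. The co-receptor genes HsIr8a, HsIr25a.1, and HsIr25a.2 overlapped, with means of 168 ± 107, 108 ± 139, and 295 ± 359 normalized counts in mutants and 126 ± 20.4, 68.3 ± 57.4, and 250 ± 192 in WT. HsIr25a.1 and HsIr25a.2 were highest in mutant replicate 1, at 269 and 710. The list had a median log2 fold change of 0.02, which was 0.32 within batch 3 and −0.68 without the 2 libraries that stand apart. None of the 19 passed by edgeR, with 0 higher and 3 lower at an unadjusted p under 0.05 (3.64 and 5.96% over all tested genes). DESeq2 called HsIr76b alone of them, beside 0.853% of all genes to which it gave an adjusted p. Among 9 gustatory receptor genes, none passed by either tool and none was without overlap. At an unadjusted p under 0.05, 1 was higher and 1 lower, beside the same 3.64 and 5.96%. HsGr1 had 22.8, 330, and 217 in mutants, against 19.8, 0.892, 64.0, and 10.9 in WT (log2 fold change 3.07, SE 1.02, adjusted p = 0.413, edgeR).

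No gene of the ER stress response and of protein folding passed the test at D15. Of the 34 genes tested, 0 passed by edgeR or by DESeq2, and 0 were higher and 6 lower at an unadjusted p under 0.05 (3.64 and 5.96% over all tested genes). The 6 genes with mutant libraries wholly below WT were BI-1, Der-1, ERp44, Manf, eIF2beta, and sip3, and none lay wholly above (4.17 and 4.33% over all tested genes). The median log2 fold change was −0.21, with 26 genes below 0, and stayed between −0.23 and −0.13 in the fits within batch 3, with batch as a term, and without 2 libraries. BI-1, an inhibitor of cell death in the ER membrane, had 4306, 5089, and 5705 normalized counts in mutants, against 6530, 6898, 7013, and 7374 in WT (log2 fold change −0.50, SE 0.18, adjusted p = 0.43, edgeR). Der-1, which helps export misfolded proteins from the ER, had a log2 fold change of −0.59, and the ER chaperone calreticulin, Calr, of −0.44. Hsc70-3, the main ER chaperone, had 34787, 25413, and 24309 in mutants, against 34952, 34997, 22355, and 27258 in WT, a log2 fold change of −0.12. Xbp1, a transcription factor of the unfolded protein response, averaged 7580 ± 2015 in mutants and 8822 ± 2349 in WT. These values are of RNA levels and do not measure protein phosphorylation or Xbp1 splicing.

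Genes of cell death and autophagy had a median log2 fold change of 0.02 over 16 genes and 0 past the test by edgeR or DESeq2. At an unadjusted p under 0.05, 0 were higher and 2 lower (3.64 and 5.96% over all tested genes). Mutant libraries lay wholly below WT in Dronc, the initiator caspase, with 598, 538, and 676 normalized counts in mutants, against 842, 690, 798, and 814 in WT (log2 fold change −0.41, SE 0.19, adjusted p = 0.52, edgeR). The autophagy genes Atg8a and Atg5 had the same order, at −0.45 and −0.58. Bruce, an inhibitor of apoptosis, was the only gene of the list wholly above WT. The list thus had 3 genes wholly below and 1 wholly above, beside 4.17 and 4.33% over all tested genes. Of 32 cell division genes, 0 passed by edgeR or DESeq2, with 1 higher and 1 lower at an unadjusted p under 0.05 (3.64 and 5.96% over all tested genes). Their median was −0.05, and 0.01 with library size as the scaling. The cyclin-dependent kinase inhibitor dap (log2 fold change 0.51) was the only gene without overlap, wholly above WT (4.33% over all tested genes). CycA, the mitotic cyclin A, had a log2 fold change of −0.51 with overlap.

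**Figure D4:**
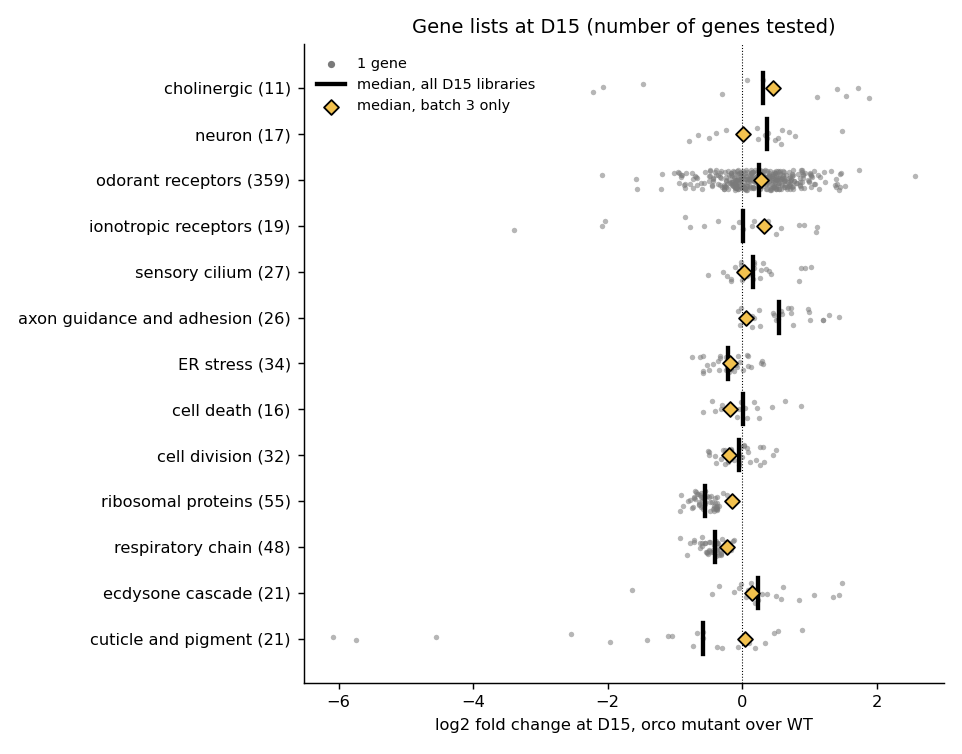
Log2 fold changes of mutants over WT at D15 for the genes of 13 lists, with 1 point per gene, black bars at the list medians from all D15 libraries, and yellow diamonds at the medians within sequencing batch 3. The ribosomal protein and respiratory chain lists lie wholly below 0, the Or list spreads around 0.25, and batch 3 alone brings the medians of the axon guidance and cuticle lists close to 0.

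Ribosomal protein and respiratory chain genes had log2 fold changes below 0 with all D15 libraries, and none passed the test. All 55 ribosomal protein genes tested had log2 fold changes below 0, with a median of −0.56, and 10 of the 55 were without overlap, wholly below WT (4.17% over all tested genes). RpL4 had 6688, 6923, and 6841 normalized counts in mutants, against 10704, 9956, 9984, and 8520 in WT (log2 fold change −0.55, SE 0.27, adjusted p = 0.52, edgeR). RpL38 had a log2 fold change of −0.93. All 48 genes of the mitochondrial respiratory chain lay below 0 too, with a median of −0.41 and 9 without overlap, among them ATPsynF at −0.72 and ND-51 at −0.32. All 55 and all 48 stayed below 0 with library size or with DESeq2's size factors as the scaling. None of these genes passed the test by edgeR or DESeq2, and 1 of the 55 and 3 of the 48 were lower at an unadjusted p under 0.05 (5.96% over all tested genes). The medians were −0.15 and −0.23 within batch 3, and 0.05 and −0.05 with batch as a term, and the part of batch was not tested beyond these fits.

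Genes of axon guidance and cell adhesion lay mostly above 0, with a median of 0.55 over 26 genes and 23 positive, and 0 past the test by edgeR or DESeq2. At an unadjusted p under 0.05, 3 were higher and 0 lower (3.64 and 5.96% over all tested genes). Ten-a, a teneurin that matches axons to partners in the fly antennal lobe, had 5918, 1986, and 6416 normalized counts in mutants, against 1396, 1499, 1184, and 2723 in WT (log2 fold change 1.44, SE 0.49, adjusted p = 0.421, edgeR). Dscam2 and Dscam3, cell recognition molecules, were the 2 genes without overlap, both wholly above WT (4.33% over all tested genes). WT replicate 4, the WT library of batch 3, held the highest WT count of Ten-a, and the list's median was 0.05 within batch 3 and −0.17 with batch as a term.

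The steroid hormone ecdysone times insect pupal development, and 1 gene of its cascade stood out. Eip93F, an ecdysone-induced transcription factor of adult metamorphosis, had 80581, 25937, and 39946 normalized counts in mutants, against 18258, 17201, 14478, and 24470 in WT (log2 fold change 1.345, SE 0.33, adjusted p = 0.28, edgeR). The genotypes did not overlap, but mutant replicate 2 and WT replicate 4, both of batch 3, lay close together, and the log2 fold change within that batch was 0.40. DESeq2's test called it with an adjusted p of 0.00813. Mutants lay above WT at D10 and D25 too, stages at which batches were also uneven between genotypes. At D10 Eip93F ranged from 29090 to 56424 in mutants and 21072 to 26709 in WT. At D25 it ranged from 27877 to 29590 in mutants and 9383 to 22318 in WT. At D20 the means were 10095 ± 1951 in mutants and 11882 ± 2841 in WT. The D15 effect differed by 0.64 from that at D10 and 1.61 from that at D20 (adjusted p = 0.938 and 0.0858, edgeR). The list of 21 genes drawn up for the cascade also held dan, known in the fly for antennal identity rather than as a gene of the cascade. It was the other gene of the list without overlap, with 112, 155, and 200 in mutants, against 44.7, 98.1, 67.9, and 82.4 in WT (log2 fold change 1.06). Both lay wholly above WT, as did 4.33% of all tested genes.

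Storage proteins, which the insect fat body secretes into the blood, were high in 2 of the 3 mutant libraries. Hex70c, a hexamerin, had 27.9, 2994, and 978 normalized counts in mutants, against 13.8, 11.6, 5.12, and 26.2 in WT (log2 fold change 6.47, SE 1.70, adjusted p = 0.36, edgeR). Mutant replicates 2 and 3, both of batch 3, carried the signal, and mutant replicate 1 was near WT. Other hexamerin genes and LOC105185160 were looked up after this value was seen. Hex110 had 2.53, 5923, and 3257 in mutants, against 0.859, 6.24, 11.5, and 41.2 in WT, and Hex70a 12.7, 198, and 127 in mutants, against 5.16, 19.6, 2.56, and 4.87 in WT. LOC105185160 followed the same libraries, with 7.60, 1140, and 956 in mutants, against 5.16, 0, 6.402, and 11.6 in WT (log2 fold change 6.80, adjusted p = 0.147, edgeR). LOC105184798, of the genes named by rule, did so too at 50.7, 650, and 451 in mutants, against 6.02, 34.8, 33.3, and 13.1 in WT (log2 fold change 4.15). WT replicate 4 shared the batch and had low counts of all 5 genes. High counts were not limited to mutants at the next stage. At D20 Hex110 ranged from 0 to 2924 in mutants and 0 to 1382 in WT, and Hex70c from 3.44 to 905 in mutants and 1.42 to 565 in WT. The WT means at D20 were 346 ± 690 for Hex110 and 144 ± 281 for Hex70c (SD, n = 4). A single WT library carried nearly all of the D20 signal of each gene.

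The summed level of 3 markers of blood cells and fat body was also higher in mutants, and none of the 3 passed the test. Of 9 markers listed, Hml and Pxn of hemocytes and apolpp, the fat body lipoprotein, were matched by symbol. Their summed normalized count was 2904 to 3754 in mutants and 1602 to 2371 in WT, with no overlap, and none was at 0. Hml, the largest part of that sum, had 1787, 2290, and 2453 in mutants, against 960, 1625, 1004, and 1647 in WT (log2 fold change 0.70). It was the only 1 of the 3 without overlap, beside 4.33% wholly above WT over all tested genes. Pxn had 943, 442, and 942 in mutants, against 579, 579, 439, and 692 in WT, and apolpp 175, 467, and 359 in mutants, against 217, 25.9, 159, and 31.1 in WT (log2 fold change 1.63). Their part in the hexamerin values was not tested.

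Genes of cuticle pigment show how far a single library can carry a value. ple, the tyrosine hydroxylase that starts the synthesis of dopamine and tanning pigments, had 215, 222, and 230 normalized counts in mutants, against 168, 208, 46473, and 142 in WT. The log2 fold change of −5.74 was 0.34 without WT replicate 3. Ddc, the next enzyme of that route, had 91.2, 24.8, and 40.4 in mutants, against 42.1, 38.3, 13021, and 21.7 in WT, with a log2 fold change of −6.09 that was 0.48 without WT replicate 3. e, which joins dopamine to beta-alanine in tanning, had 38.0, 34.1, and 30.2 in mutants, against 36.1, 37.4, 3020, and 43.8 in WT, with a log2 fold change of −4.55 that was −0.25 without WT replicate 3. Over the 21 genes of cuticle and pigment the median was −0.58 with all libraries and 0.00 without the 2 libraries that stand apart. DESeq2 called ple, Ddc, and e at adjusted p-values of 0.0122, 0.00679, and 0.00813, and edgeR did not (0.425, 0.411, and 0.41).

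WT replicate 3 was highest in other genes as well. It held 1965 normalized counts of LOC105182650, a support cell marker of the study, against 20.3, 71.5, and 49.0 in mutants and 43.8, 101, and 50.9 in the other WT libraries. It held 3868 of the nuclear receptor gene Hr38, against 362, 441, and 501 in mutants and 475, 435, and 554 in the other WT libraries. ChAT in WT replicate 3 was 3125, the highest of WT, and without that library ChAT had a log2 fold change of −1.84 (adjusted p = 0.0189, edgeR).

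**Figure D5:**
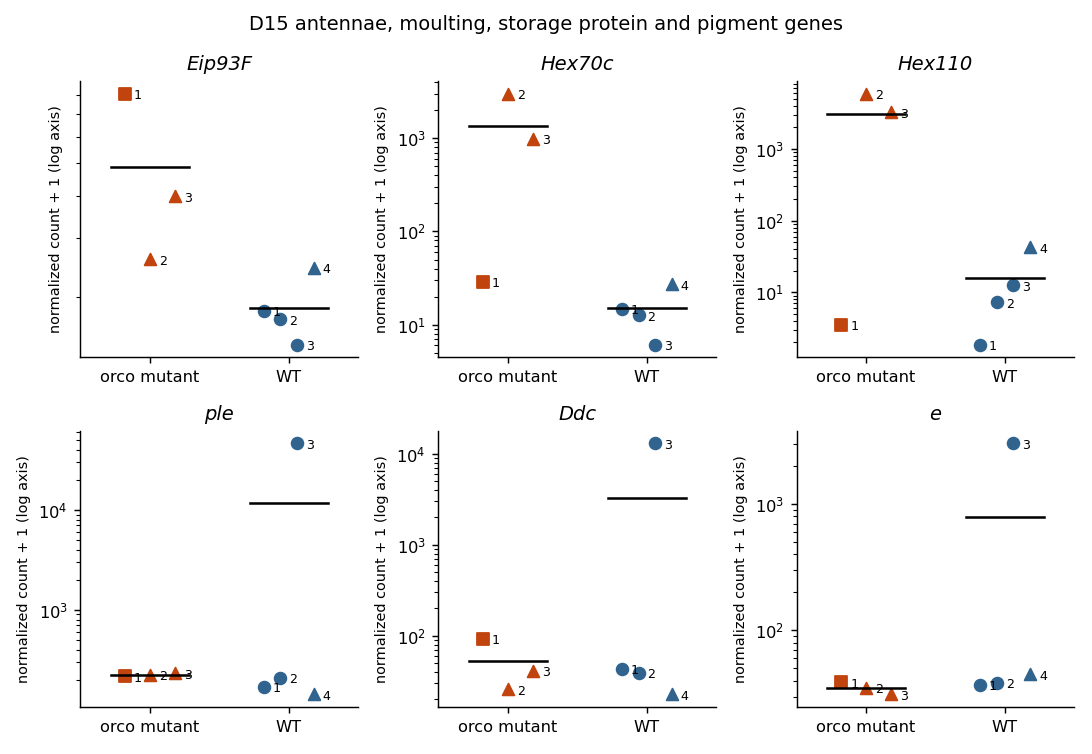
Normalized counts plus 1 of Eip93F, Hex70c, Hex110, ple, Ddc, and e in each D15 library on a log axis, with mutants at the left and WT at the right, bars at the group means, digits for replicate numbers, and marker shapes for batches. Hexamerin counts are high in mutant replicates 2 and 3 only, and ple (46473), Ddc (13021), and e (3020) are high in WT replicate 3 only.

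Other cell types of the antenna showed no marker past edgeR's test, and DESeq2 called LOC105182650 (adjusted p = 0.0475). The glial gene repo ranged from 1163 to 1515 normalized counts in mutants and from 732 to 1486 in WT. The 4 support cell markers summed to 3562 to 10490 in mutants and 3014 to 16900 in WT, the epithelial gene grh ranged from 1478 to 3837 in mutants and 696 to 3719 in WT, and the muscle gene Mhc from 338 to 986 in mutants and 375 to 1361 in WT. nompC, the channel of mechanosensory neurons, taken here by the study's gene ID LOC105188598, ranged from 30.4 to 86.7 in mutants and 19.8 to 46.1 in WT. The ammonia transporter gene Rh50 ranged from 24.5 to 317 in mutants and 11.5 to 430 in WT. All of these ranges overlapped.

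Against the stage before, the mutant effect at D15 differed in 1 gene of 11086 (0.00902%). CPR1 (LOC105180609) averaged 43.2 ± 9.34 normalized counts in mutants and 33.7 ± 9.65 in WT at D15, and 153 ± 143 in mutants and 8989 ± 11086 in WT at D10. The difference of 6.11 (adjusted p = 0.0377, edgeR) thus came from D10, where the WT libraries spread from 1359 to 21706. It was no longer past the threshold with batch as a term (adjusted p = 0.0862), with the replicate block, without the 2 libraries that stand apart, or in 6 of the 7 edgeR fits without 1 library, the exception being the fit without WT replicate 3. ChAT, at −2.38 for the same contrast, had an adjusted p of 0.0719 by edgeR.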

How the data were processed

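The labels give genotype, stage, replicate number, and sequencing batch for 27 libraries of polyA RNA from antennae, made with 110 ng of RNA and 12 PCR cycles. The authors mapped reads with STAR 2.6.1d, clipped the batch with longer reads, and deposited raw counts of reads for each of 14407 genes, counted here without strand. They also deposited normalized signal, in which counts had been divided by DESeq2 1.34.0 size factors, and these values differed from that quotient by at most 7.45e-08. All columns of that table matched a library. Normalized values were printed and raw counts were tested.

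The 11086 genes whose mean count reached 10 were tested with edgeR 4.0.16 (R 4.3.3, TMM, quasi-likelihood, two-sided) in 1 model of 8 genotype-by-stage groups, with Benjamini-Hochberg adjustment and a threshold of 0.05. The SE of a log2 fold change is its size over the square root of F. The floor was 3 counts per library, a limit that covers counting error only. DESeq2 1.42.0 gave the second test and the transformed values for principal components (13730 genes). The model was tested on simulated data. Replicates differed beyond sampling noise, and chi-square over degrees of freedom was 197 or more in 9 pairs. Symbols for 4090 IDs came from RefSeq's table of assembly Hsal_v8.6, which gives nompC to another ID than the study does.

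Genes named were those past the threshold, the 12 with the smallest p in each direction without overlap and with a mean of at least 100 in the higher genotype, those the study names, 5 from the D20 contrast, and 3 from each of 24 lists, not all of them printed. Members and lists were chosen with earlier results of these data known. No sequences were used here.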

Additional observations from a re-analysis of the deposited data

Results flagged for a closer look

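In WT antennae at D15, single libraries stood far from the other 3 in 12 of the 79 measures examined (Dixon's ratio of gap to range, above its 95% critical value). For normally distributed values, chance alone flags about 1 in 20 independent groups. These measures share the same WT libraries and include genes named for their D15 values, so that rate need not hold here. WT replicate 3 was the high library for VAChT (759 normalized counts), meng (3693), ple (46473), Ddc (13021), e (3020), LOC105182650 (1965), and Hr38 (3868). WT replicate 2 was high for LOC112589222 (42.8) and Hex70a (19.6) and had the fewest genes detected (11128). WT replicate 1 was high for Atg5 (527), and WT replicate 4 had the most reads on genes (38608319).

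The mutant effect differed between D15 and D20 in 286 genes by edgeR with Benjamini-Hochberg adjustment, as a test of the difference itself. Among those named, the log2 difference was 2.48 for HsOrco, 5.88 for HsOr293, 6.06 for HsOr157, 5.89 for HsOr336, 1.84 for HsOr247, 3.35 for HsOr206, and 3.70 for HsOr136. It was 2.73 for LOC105190591, 1.71 for nSyb, 1.86 for IFT54, 1.79 for BBS4, 1.71 for BBS8, 1.46 for Oseg5, and 0.64 for nompB, and lay the other way for Fdx2 (−2.50), Sec13 (−1.02), LOC112589618 (−5.05), LOC112590425 (−11.89), and HsIr317 (−3.52). It was 5.799 for LOC112588826, whose count was high in mutant replicate 1 alone. Between D15 and D10 the effect differed in 1 gene, CPR1 (LOC105180609), at 6.11.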

How the results depend on the processing

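The count of genes differing at D15, 1 by edgeR, was 94 with DESeq2's test, 13 with the replicate block, 15 within batch 3, where WT replicate 4 was the lone WT library and was assumed to vary like the other groups, and 0 with batch as a term, with only the D15 libraries, or without mutant replicate 1 and WT replicate 3. That last alternative was chosen after seeing the data. Leaving out 1 library gave 0 to 19 genes, with 19 without WT replicate 4, and other scalings or filters gave 1. Replicate numbers do not pair the libraries (correlations of same-numbered deviations 0.42, 0.36, and −0.25). The count for D15 against D20, 286, was 492 with DESeq2's test, 16 within batch 3, 180 without the 2 libraries, and 195 to 330 without 1 library. For D15 against D10, the count of 1 was 55 with DESeq2's test, 0 with batch as a term or without the 2 libraries, and 0 to 2 without 1 library, and the fit within batch 3 was not run. Of 1001 alternative values for 59 genes at D15, 7 turned direction. Ddc was 0.54 within batch 3 and −6.65 to 0.48 without 1 library. ple was 0.64 within batch 3, 0.38 without the 2 libraries, and −6.15 to 0.34 without 1 library. LOC105182650 was 0.22 within batch 3, and Hex70a −0.0020 with batch as a term. The difference in mean scaled Or expression ranged from −0.0595 to 0.187 without 1 library. In other cases the cause of a change was not tested.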

Other observations

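In gene groups outside the comparisons above, 0 genes passed edgeR's test at D15 in each. All 8 transcription factors of olfactory neurons that were tested, among them acj6 and pdm3, which set receptor choice in the fly, had positive log2 fold changes, with a median of 0.61, 0.31 within batch 3, and 0.01 with batch as a term. Of 12 genes of odor transduction 10 were positive, with a median of 0.43, 0.10 within batch 3, and −0.25 with batch as a term. Trpm, a cation channel gene, was the only one without overlap (4.33% wholly above WT over all tested genes). It had 2932, 2860, and 2922 normalized counts in mutants, against 1444, 1730, 2343, and 2417 in WT. Its log2 fold change was 0.52, 0.23 within batch 3, and −0.06 with batch as a term. The 9 tested genes of other transmitters had a median of 0.12, and DESeq2 called ple and Ddc among them, for which WT replicate 3 was high. Medians were −0.33 for 4 heat shock genes, 0.07 for 13 genes of glia, 0.14 for 7 of support cells, −0.10 for 11 of muscle, 0.11 for 9 of epithelium, and −0.19 for 5 of the cytochrome P450 family. Among the muscle genes Msp300 alone was without overlap, beside 4.33% wholly above WT over all tested genes. It had 20313, 12367, and 8772 in mutants, against 5064, 8079, 3433, and 7439 in WT.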
